A study of Homo sapiens with 6 samples.

Results

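The genes described here encode 10 heat shock proteins of the cytosol and the mitochondrion, namely HSPA1A, HSPA1B, HSPA8, HSP90AA1, HSP90AB1, HSPH1, HSPB1, DNAJB1, HSPD1 and HSPE1. They were taken by symbol from the 20030 genes of the deposited tables. The rule itself uses no measured value, but the members were chosen with earlier results of these data known. All 10 passed the filter on low counts, which kept 12369 genes. The libraries were made from HepG2, an established human hepatoma line, after lentiviral delivery of a control shRNA (sh-ctrl, 3 libraries) or of an shRNA against KIF11 (sh-KIF11, 3 libraries). An shRNA is a short hairpin RNA that directs cleavage of a matching mRNA, and KIF11 is a kinesin motor that drives the poles of the mitotic spindle apart. Both groups therefore went through transduction, and the study's oligo list gives 1 shRNA sequence against KIF11, although it does not say which cells received it. Nothing in the labels says that the libraries of a group came from separate cultures, so p-values measure the spread between these libraries, which may be technical.

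Heat shock proteins are chaperones that bind unfolded or partly folded proteins and help them to fold, refold or be degraded. HSP70 proteins bind short hydrophobic stretches in a cycle driven by ATP, in which J proteins such as DNAJB1 bring the client and exchange factors such as HSPH1 release it. HSP90 acts later on a narrower set of clients, including kinases and steroid receptors, small heat shock proteins such as HSPB1 hold unfolded proteins without ATP, and the HSPD1 barrel with its HSPE1 lid folds proteins inside the mitochondrial matrix. Some members are made constitutively (HSPA8, HSP90AB1) and others are strongly induced by heat (HSPA1A, HSPA1B, DNAJB1) through HSF1, a transcription factor that binds inverted repeats of the letters GAA, called heat shock elements.

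The heat shock elements were looked for in the RefSeq promoter windows of GRCh38.p14, which run from 250 bases before to 50 bases after a gene's start. All 10 members had at least 1 window and together they had 16. A dimer was taken as GAANNTTC or TTCNNGAA and a trimer as GAANNTTCNNGAA or TTCNNGAANNTTC, so that both strands were covered and every trimer also contained dimers. A trimer was found in a window of 4 members (HSPA8, HSP90AA1, HSP90AB1 and HSPD1), against 0.608% of the 27305 genes with windows, and a dimer in a window of 8 members, against 16.2% of those genes. The windows of HSPH1 and HSPE1 held neither, which says only that these letters are not in those windows. A match is a string of letters, and binding of HSF1 was not measured.

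Of the members that carry trimers, HSP90AA1 rose with KIF11 knockdown, and HSPA8, HSP90AB1 and HSPD1 fell. The 30 bases around their matches are printed here. Each is read 5′ to 3′ on the strand of the gene, with the matched letters in capitals, and the number after the name gives the bases from the first capital to the start of the gene. The single HSP90AA1 run lies at chr14:102087104-102087133 on the minus strand, before the inner of its 2 starts. The HSP90AB1 runs lie at chr6:44247770-44247799 and chr6:44247823-44247852 on the plus strand, before the third of its 3 starts. The HSPA8 runs lie at chr11:123062345-123062374 and chr11:123062170-123062199 on the minus strand, and the HSPD1 run lies at chr2:197500061-197500090 on the minus strand. Some of these runs fall inside first exons of transcripts in GENCODE that start further upstream or on the other strand.
HSP90AA1, 88: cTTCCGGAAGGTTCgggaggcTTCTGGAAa
HSP90AB1, 165: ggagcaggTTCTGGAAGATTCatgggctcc
HSP90AB1, 112: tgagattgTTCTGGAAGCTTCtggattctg
HSPA8, 230: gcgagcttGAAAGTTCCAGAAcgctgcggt
HSPA8, 55: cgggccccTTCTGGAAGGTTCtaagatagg
HSPD1, 245: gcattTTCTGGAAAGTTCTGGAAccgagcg

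The heat-inducible members with dimers only are shown in the same way. HSPA1A and HSPA1B are neighbouring copies on chromosome 6, and their promoter windows were identical at 277 of 301 aligned positions (92.0%). Their runs lie at chr6:31815426-31815455 and chr6:31827622-31827651 on the plus strand. The HSPB1 run lies at chr7:76302480-76302509 on the plus strand, and the DNAJB1 runs at chr19:14518456-14518485 and chr19:14518426-14518455 on the minus strand.
HSPA1A, 106: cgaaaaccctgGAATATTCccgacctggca
HSPA1B, 105: cgaaacccctgGAATATTCccgacctggca
HSPB1, 182: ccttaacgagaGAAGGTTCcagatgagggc
DNAJB1, 77: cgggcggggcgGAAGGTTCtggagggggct
DNAJB1, 47: ggcgggctctgGAAGCTTCcgccggacggg

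HSPH1 rose the most of the 10 members, and the 250 bases before its start, at chr13:31162389-31162638 on the minus strand, are printed whole because they hold no match. The window of HSPE1, which fell the most with TMM factors, held no match either and is not printed. Whether matches go with the direction of change was not tested.
HSPH1: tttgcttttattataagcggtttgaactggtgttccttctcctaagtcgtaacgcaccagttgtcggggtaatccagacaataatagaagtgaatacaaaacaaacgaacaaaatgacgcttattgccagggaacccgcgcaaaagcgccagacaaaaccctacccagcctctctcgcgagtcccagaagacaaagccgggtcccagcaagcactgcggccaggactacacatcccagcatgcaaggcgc

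The libraries held between 18167773 and 19583282 counts. Counts relative to library size (CPM) were scaled with TMM factors, which ranged from 0.922 to 0.926 in sh-ctrl and, in sh-KIF11, from 1.08 to 1.09, and changes were tested with the quasi-likelihood test of edgeR, where p-values were adjusted over the 12369 genes by the Benjamini-Hochberg method and the threshold was 0.05. KIF11 itself was lower in sh-KIF11, at 116 ± 5.01 CPM in sh-ctrl against 68.8 ± 5.16 CPM in sh-KIF11 (SD, n = 3 each, log2 fold change −0.75, SE 0.057, edgeR adjusted p = 2.2e-19). Hepatocyte markers, 9 of 9 detected, summed to between 32200 and 33800 CPM in sh-ctrl, and with the knockdown to between 14400 and 15500 CPM. They did not fall alike. TTR was not called (log2 fold change −0.13, edgeR adjusted p = 0.269), and the others were called lower, from −0.35 (APOB) to −2.28 (TF). The 5 fibroblast markers summed to at most 0.554 CPM in any library, with DCN at 0 in all 6. Of the 5 leukocyte markers, LYZ carried nearly the whole sum, which ranged from 2490 to 2980 CPM in sh-ctrl, and with the knockdown from 508 to 639 CPM, while PTPRC had at most 1 count per library. The 4 endothelial markers summed to between 3.16 and 4.98 CPM. The part of these markers in the members' changes was not tested, and in bulk RNA fewer cells of a type and less RNA per cell cannot be told apart.

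With KIF11 knockdown, 8 members fell and 2 rose, although DNAJB1, counted among the 8, changed by 0.07 with library totals in place of TMM factors and by 0.05 or 0.06 in FPKM (log2 scale, none of these called). The members that fell were the HSP70 genes HSPA1A, HSPA1B and HSPA8, the constitutive HSP90AB1, the small heat shock protein HSPB1, the J protein DNAJB1 and the mitochondrial pair HSPD1 and HSPE1. HSPH1, the exchange factor of HSP70, and HSP90AA1, the inducible form of HSP90, rose. Their log2 fold changes ran from −0.66 (HSPE1) to 0.41 (HSPH1), so all changes were smaller than 1 on the log2 scale, and their median was −0.38 against a median of 0 over all tested genes. The comparison called 69.3% of all tested genes, with 34.6% of the tested genes higher and 34.7% lower, so that a call by itself is common here. With an absolute log2 fold change of at least 0.5 required as well, 3 members were called lower by edgeR, against 13.9% of all tested genes, and neither HSPH1 nor HSP90AA1 was called higher, against 17.6% of all tested genes. The 3 were HSPA1B, HSPB1 and HSPE1, and these counts hold for TMM factors. With library totals the 3 genes were at −0.32, −0.33 and −0.43, and HSPH1 was at 0.64.

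The groups did not overlap in CPM for any of the 10 members, against 71.2% of all tested genes. The absolute changes of the members stood between the 22.9th percentile (HSP90AA1) and the 77.4th percentile (HSPE1) of all tested genes. The members together made up 1.05% ± 0.0227 of all counts in sh-ctrl against 1.04% ± 0.0294 in sh-KIF11 (SD, n = 3 each). As a share of all counts they thus overlapped between the groups, whereas their summed CPM, after TMM scaling, lay between 11200 and 11700 in sh-ctrl and between 9379 and 9863 with the knockdown.

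**Figure D1:**
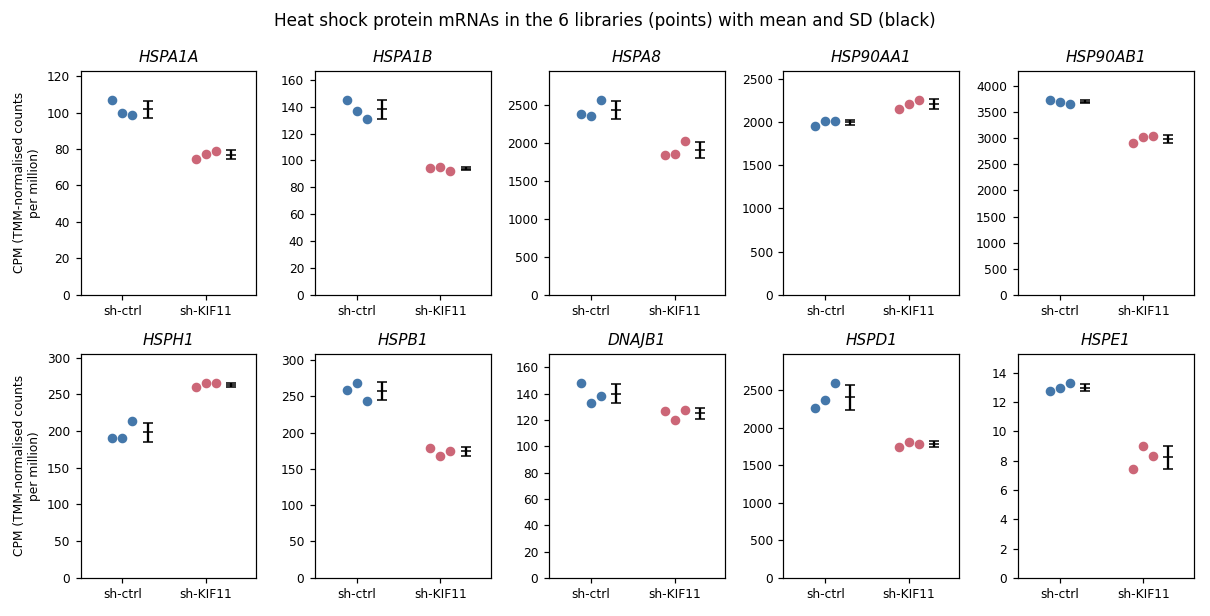
TMM-normalised CPM (vertical axes, each from 0) of the 10 members in the 3 sh-ctrl and 3 sh-KIF11 libraries, with the mean and SD in black. The groups do not overlap in any panel, and HSP90AA1 and HSPH1 are the panels in which sh-KIF11 lies above sh-ctrl.

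HSPA8 encodes the constitutive HSP70 of the cytosol and had the most counts of the HSP70 members. It was measured at 2380, 2360 and 2570 CPM in sh-ctrl, against 1840, 1860 and 2030 CPM in sh-KIF11. Every sh-KIF11 library was below every sh-ctrl library, and replicate 3 was the highest of both groups. The log2 fold change was −0.35 (SE 0.048, edgeR adjusted p = 1.45e-09).

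HSPA1A and HSPA1B encode the heat-inducible HSP70, and they lie at chr6:31815464-31817946 and chr6:31827735-31830255 (GRCh38, GENCODE release 29, plus strand). HSPA1A was at 107, 99.7 and 98.6 CPM in sh-ctrl, against 74.4, 77.3 and 79 CPM in sh-KIF11 (log2 fold change −0.41, SE 0.0555, edgeR adjusted p = 1.52e-09). HSPA1B was at 145, 137 and 131 CPM in sh-ctrl, against 94.6, 94.8 and 92.3 CPM in sh-KIF11 (log2 fold change −0.55, SE 0.0535, edgeR adjusted p = 9.02e-15). The longest principal transcripts of the pair were 88.7% identical, and 67.1% of the 150-base stretches of HSPA1A and 70.0% of those of HSPA1B also occurred in another gene, the other copy among them. How reads shared by the copies were counted is therefore uncertain. The sum of the pair does not depend on how such reads were divided, but it does not recover reads that the counting may have dropped. The sum fell from 239 ± 11.6 CPM to 171 ± 1.62 CPM (SD, n = 3 each, log2 fold change −0.49, SE 0.0507, edgeR adjusted p = 1.4e-13). HSPA6, a strictly heat-inducible HSP70, had between 0 and 2 counts per library and was not tested.

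HSPH1, the HSP110 exchange factor, was at 191, 190 and 213 CPM in sh-ctrl, against 260, 265 and 265 CPM in sh-KIF11. All 3 knockdown libraries were above the highest control, and their SD was 2.62 CPM. The log2 fold change was 0.41 (SE 0.0509, 1.33-fold, edgeR adjusted p = 5.44e-11). Its closest relatives HSPA4 and HSPA4L, also exchange factors, rose as well, with log2 fold changes of 0.24 and 0.45 (edgeR adjusted p = 1.73e-05 and 2.75e-10).

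DNAJB1, the J protein that stimulates HSP70 in the cytosol, was at 148, 133 and 138 CPM in sh-ctrl, against 127, 120 and 128 CPM in sh-KIF11. The lowest control and the highest knockdown library were close to each other, and the log2 fold change was −0.16 (SE 0.0529, 95% interval −0.27 to −0.05, edgeR adjusted p = 0.00605). In FPKM the groups overlapped, at 22.9 ± 1.05 in sh-ctrl against 23.8 ± 0.589 in sh-KIF11 (SD, n = 3 each). The call was lost without sh-ctrl replicate 1 (log2 fold change −0.11, edgeR adjusted p = 0.0747) and without sh-KIF11 replicate 2 (−0.13, edgeR adjusted p = 0.0601), while the direction was kept with each of the 6 libraries left out in turn. The values of 0.07 with library totals and 0.05 on the log2(FPKM + 1) scale lay below the medians of all tested genes under those scalings, 0.24 and 0.12.

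The 2 cytosolic HSP90 genes moved in opposite directions. HSP90AA1, the stress-inducible form, was at 1960, 2010 and 2020 CPM in sh-ctrl, against 2150, 2210 and 2260 CPM in sh-KIF11. HSP90AB1, the constitutive form, was at 3740, 3700 and 3670 CPM in sh-ctrl, against 2910, 3020 and 3040 CPM in sh-KIF11. In neither gene did the groups overlap. The log2 fold change of HSP90AA1 was 0.14 (SE 0.0461, edgeR adjusted p = 0.00533), with an adjusted p of 0.0503 without sh-KIF11 replicate 3, and that of HSP90AB1 was −0.31 (SE 0.0459, edgeR adjusted p = 1.25e-08), with −0.08 and an adjusted p of 0.107 under library totals. No 150-base stretch of either principal transcript was found in another gene, so shared sequence of that length does not mix their counts.

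HSPB1, a small heat shock protein that holds unfolded proteins and acts on actin filaments, was at 259, 268 and 243 CPM in sh-ctrl, against 179, 168 and 175 CPM in sh-KIF11. The gap between the groups was wider than the range within either. The log2 fold change was −0.56 (SE 0.051, 0.677-fold, edgeR adjusted p = 4.79e-16).

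HSPD1 and HSPE1, which encode the mitochondrial chaperonin and its lid, lie head to head on chromosome 2, with the HSPD1 start that follows the printed trimer 539 bases from the HSPE1 start. The 18 matched bases of that run lie 294 bases from the HSPE1 start, outside its window. HSPD1 was at 2260, 2360 and 2590 CPM in sh-ctrl, against 1740, 1810 and 1780 CPM in sh-KIF11 (log2 fold change −0.43, SE 0.0481, edgeR adjusted p = 1.66e-12). HSPE1 was at 12.8, 13 and 13.3 CPM in sh-ctrl, against 7.43, 8.99 and 8.32 CPM in sh-KIF11 (log2 fold change −0.66, SE 0.115, edgeR adjusted p = 7.06e-07). Both genes were lower in all 3 knockdown libraries than in any control.

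The value of HSPE1 rests on unusually few counts. Its raw counts were 228, 234 and 224 in sh-ctrl against 149, 186 and 164 in sh-KIF11, while the deposited FPKM, a value per length, was 513, 510 and 532 in sh-ctrl against 433, 448 and 475 in sh-KIF11. This came to 0.407 counts per FPKM unit, against 16.8 (HSPB1) to 116 (HSPH1) in the other members and a median of 69.2 over the 4705 genes with a mean of at least 10 FPKM, of which 26 (0.553%) were as low as HSPE1. The read-through gene HSPE1-MOB4, which in RefSeq spans all of HSPE1, had 0 counts in all 6 libraries, and in GENCODE 9.71% of the HSPE1 exon bases are shared with it on the same strand and 14.2% lie opposite HSPD1. How the counting treated shared reads, and whether it used the strand, is not given in the sources used here. In FPKM the fall of HSPE1 was smaller, −0.2 on the log2(FPKM + 1) scale (limma adjusted p = 0.00168). The other members that fell with TMM factors also had smaller falls or none on this scale, with HSPD1 at −0.26 in place of −0.43. The median of all tested genes was 0.12 there. The part of the read-through gene in the values of HSPE1 was not tested. Without HSPE1, 2 members were called higher and 7 lower, with a median of −0.35.

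**Figure D2:**
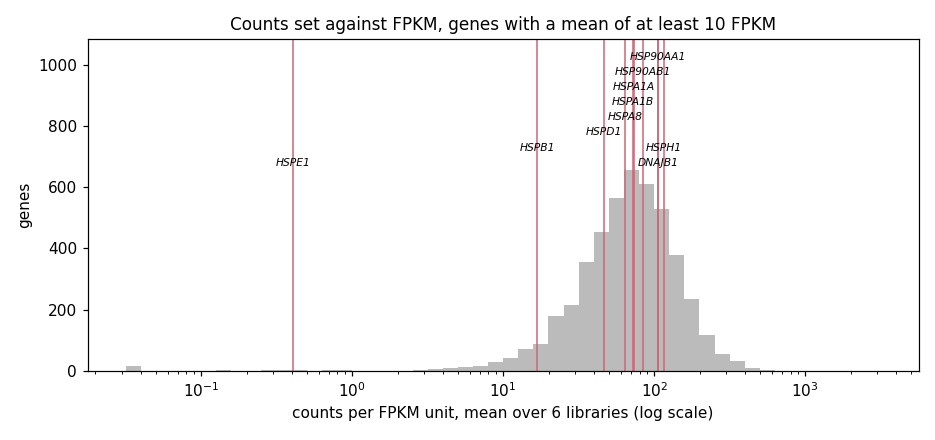
Counts per FPKM unit (horizontal axis, log scale, mean over the 6 libraries) of the 4705 genes with a mean of at least 10 FPKM, as numbers of genes (vertical axis), with the members as vertical lines; the leftmost bar also holds the genes below that level. HSPE1, at 0.407, lies far to the left of the other members, which lie between 16.8 and 116.

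Ratios between members within a library do not depend on how libraries are scaled to each other. Of 6 ratios of counts, the groups did not overlap in 4. How often ratios of other gene pairs would separate was not tested, and 71.2% of all tested genes separated singly in CPM. The ratio of HSP90AA1 to HSP90AB1 was 0.524, 0.544 and 0.55 in sh-ctrl against 0.738, 0.731 and 0.745 in sh-KIF11, a 1.37-fold rise. The ratio of HSPH1 to HSPA8 was 0.0803, 0.0805 and 0.0826 in sh-ctrl against 0.142, 0.142 and 0.13 in sh-KIF11, a 1.7-fold rise. In both ratios the step between the groups was several times the spread within them, and both kept their direction in FPKM, with log2 differences of 0.45 and 0.77. With 3 against 3 libraries the two-sided exact permutation test cannot go below p = 0.1, which both reached (Benjamini-Hochberg value over the 6 ratios 0.15).

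The other 4 ratios moved less. The ratio of DNAJB1 to HSPA8 was 0.0574 ± 0.0043 in sh-ctrl against 0.0655 ± 0.00331 in sh-KIF11 (SD, n = 3 each, exact permutation p = 0.1, adjusted 0.15), so relative to HSPA8 the value of DNAJB1 was higher, not lower. The ratio of the summed HSPA1A and HSPA1B to HSPA8 was 0.0984 ± 0.00856 in sh-ctrl against 0.0895 ± 0.00458 in sh-KIF11, and the groups overlapped (exact permutation p = 0.3, adjusted 0.3). The groups also overlapped in the ratio of HSPB1 to HSPA8, at 0.106 ± 0.00993 and 0.0911 ± 0.00582 (exact permutation p = 0.2, adjusted 0.24). For HSPD1 to HSPE1 the count and FPKM tables differed. In counts the ratio went from 184 ± 9.57 to 217 ± 16.6 (log2 difference 0.23, exact permutation p = 0.1, adjusted 0.15), and in FPKM from 1.76 ± 0.0589 to 1.68 ± 0.0512 (log2 difference −0.06, exact permutation p = 0.3).

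**Figure D3:**
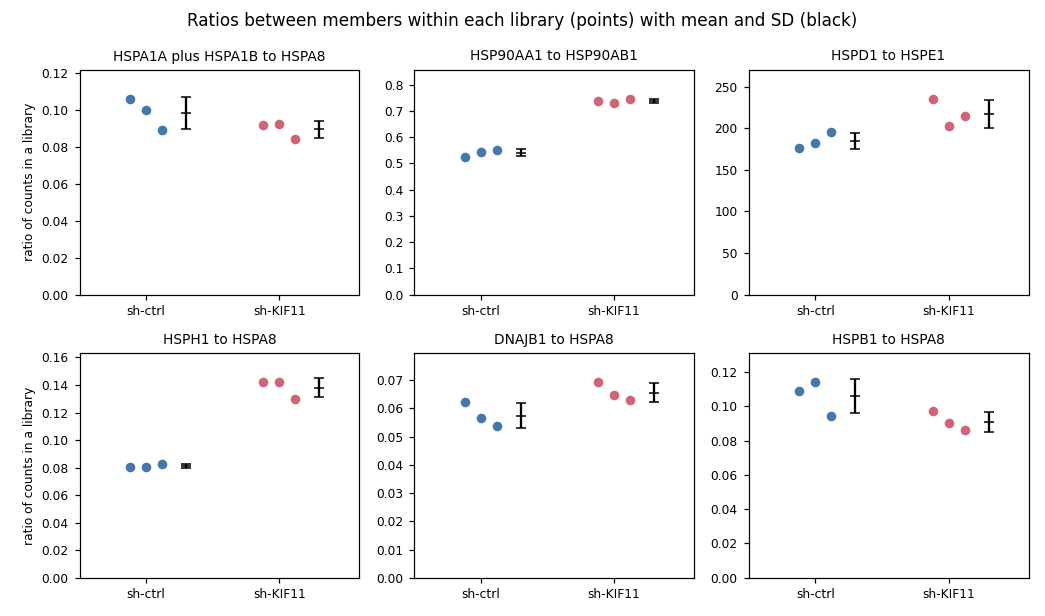
Ratios of counts between members within each library (vertical axes, each from 0) in the 3 sh-ctrl and 3 sh-KIF11 libraries, with the mean and SD in black. The step is clearest for HSP90AA1 to HSP90AB1 and for HSPH1 to HSPA8, while the groups overlap for the HSPA1A and HSPA1B sum to HSPA8 and for HSPB1 to HSPA8.

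The choice of scaling moved the median of all genes. With library totals in place of TMM factors the median change over the 12369 genes was 0.24 on the log2 scale in place of 0, and it was 0.08 with upper-quartile factors and 0.12 on the log2(FPKM + 1) scale. Under library totals HSPH1 and HSP90AA1 were still called higher, at 0.64 and 0.37, and 6 members were called lower, with HSP90AB1 (−0.08) and DNAJB1 (0.07) no longer called. Relative to the shifted median of 0.24, HSPH1 and HSP90AA1 stayed above it and the other 8 members below it.

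**Figure D4:**
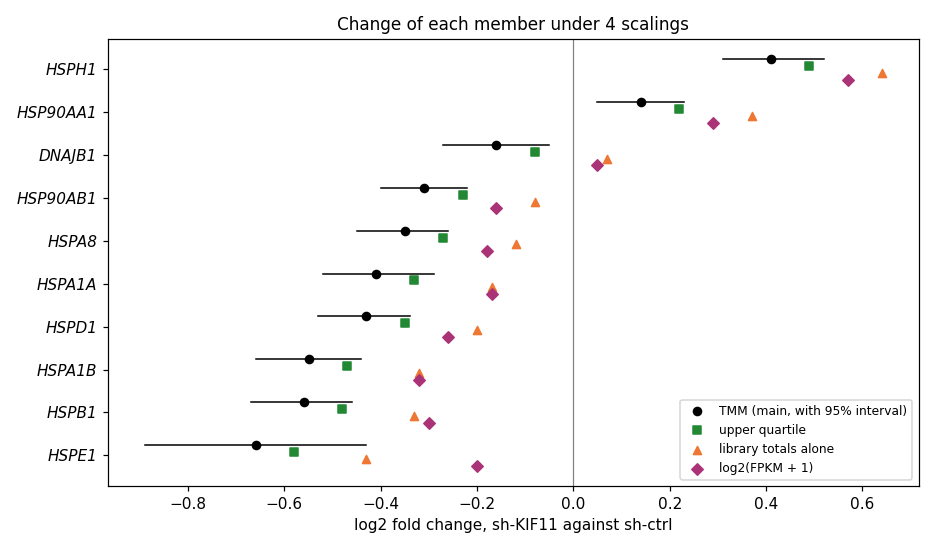
Log2 fold change of sh-KIF11 against sh-ctrl (horizontal axis) of each member with TMM factors (black, with the 95% interval), upper-quartile factors (green squares), library totals alone (orange triangles) and log2(FPKM + 1) (purple diamonds). HSPH1 and HSP90AA1 lie above 0 and all members but DNAJB1 among the rest lie below 0 under every scaling shown.

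Levels can be compared between genes only per length, as FPKM. In sh-ctrl the order was HSPD1 (911 FPKM), HSP90AB1 (788), HSPA8 (669), HSPE1 (519), HSP90AA1 (339), HSPB1 (265), HSPA1B (33.4), HSPH1 (30.2), HSPA1A (24.1) and DNAJB1 (22.9). With the knockdown the first 6 genes kept this order and the last 4 were ordered HSPH1 (45.5 FPKM), HSPA1B (26.6), DNAJB1 (23.8) and HSPA1A (21.2). Neighbours overlapped between libraries of a group in the pair of HSPA1A and DNAJB1 in sh-ctrl alone. The place of HSPE1 rests on its FPKM, since its CPM was the lowest of the members in every library. The split between HSPA1A and HSPA1B is uncertain, and summed they stood at 57.5 ± 2.41 FPKM in sh-ctrl, against 47.8 ± 0.549 FPKM in sh-KIF11 (SD, n = 3 each), above HSPH1 in both groups. The genes whose log2 CPM ran most like that of HSPD1 over the 6 libraries were LEPROTL1, MRPS28 and MAL2 (Pearson r from 0.9982 to 0.9986 among 9392 genes), and those most like DNAJB1 were PCCB, MEX3D and QDPR (r from 0.9863 to 0.9924). These values describe 6 libraries in 2 groups that share their group difference.

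Of the heat shock factors and their binding partners, 2 of 6 rose, 2 fell and 2 did not pass the test. With TMM factors, as used here, 34.6% of all tested genes were called higher and 34.7% lower. HSF1, the main activator of the heat shock response, fell from 90.4 ± 5.56 CPM to 75.1 ± 1.57 CPM (log2 fold change −0.27, edgeR adjusted p = 2.78e-05), and HSBP1, which binds HSF1, fell from 108 ± 8.3 CPM to 92.5 ± 2.92 CPM (edgeR adjusted p = 0.000265). HSF2 rose by 0.18 on the log2 scale (edgeR adjusted p = 0.0389), and HSF4, at a low level, rose from 1.3 ± 0.426 CPM to 3.06 ± 1.04 CPM (edgeR adjusted p = 4.97e-05). In FPKM the groups overlapped for HSF1, at 22.3 ± 1.34 in sh-ctrl against 21.4 ± 0.764 in sh-KIF11. They also overlapped for HSBP1, at 56.9 ± 3.07 against 53.6 ± 1.68 FPKM, and for HSF4. For HSF2 the groups overlapped in CPM and not in FPKM. HSBP1L1 and HSF2BP had log2 fold changes of −0.23 and −0.11 (edgeR adjusted p = 0.14 and 0.709). Heat-inducible targets of HSF1 outside the 10 members divided evenly, with 8 higher, 8 lower and 3 not called of 19 tested and a median of −0.06. Among them MRPL18, a protein of the mitochondrial ribosome, fell by 0.71 on the log2 scale (edgeR adjusted p = 5.88e-19), and FKBP4 fell and DNAJB4 rose with the values given among the partners. SERPINH1, the collagen chaperone, rose by 0.58 on the log2 scale (edgeR adjusted p = 6.36e-16), and BAG3, an HSP70 cochaperone, had a log2 fold change of 0.13 (edgeR adjusted p = 0.0343).

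Partners of the cytosolic members moved in both directions. The counts below hold for TMM factors, under which 34.6% of all tested genes were called higher and 34.7% lower. Of the cochaperones of HSP70 and HSP90, 6 rose and 12 fell of 23 tested, with a median of −0.14. Those that fell included HSPBP1, an exchange factor of HSP70 (log2 fold change −0.83, edgeR adjusted p = 6.94e-16), FKBP4, an immunophilin of steroid receptor complexes (−0.52, adjusted p = 2.15e-14), and BAG1 (−0.5, adjusted p = 1.15e-09), while TOMM34 rose by 0.48. Of the other J proteins of the cytosol, 7 rose and 4 fell of 15 tested, with a median of 0.04. DNAJB4, DNAJB14 and DNAJC13 rose by 0.67, 0.63 and 0.48, and DNAJC5, which is found on secretory vesicles, fell by 0.39. The other HSP70 and HSP110 genes, not all of them cytosolic, had 3 higher and 2 lower of 7 tested, with HSPA12A at 0.66. The 2 lower genes were HSPA13, at −0.4, and the mitochondrial HSPA9, at −0.19, which is also counted among the mitochondrial chaperones below. Of the TRiC and prefoldin subunits, which help to fold actin and tubulin, 3 rose and 8 fell of 14, with PFDN6 at −0.48, CCT7 at −0.35, PFDN2 at −0.33 and PFDN4 at 0.47.

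Chaperones of the organelles mostly fell where they were called. Of 16 other mitochondrial chaperones and proteases, 7 fell, 1 rose and 8 did not pass the test, with a median of −0.14. CLPP, the proteolytic subunit of a matrix protease, fell from 35.4 ± 1.89 CPM to 14.1 ± 0.644 CPM (log2 fold change −1.33, edgeR adjusted p = 1.65e-23), and DNAJA3, GRPEL1 and TRAP1 fell by 0.99, 0.79 and 0.64. HSPA9, the mitochondrial HSP70, fell from 745 ± 40.8 CPM to 652 ± 16.6 CPM (log2 fold change −0.19, edgeR adjusted p = 0.000294). In FPKM the groups overlapped for HSPA9, at 166 ± 7.67 in sh-ctrl against 164 ± 4.15 in sh-KIF11. Of 12 chaperones of the endoplasmic reticulum, 11 fell and 1 did not pass the test, with a median of −0.76, which is below the median of −0.38 of the 10 members. PDIA4, a disulphide isomerase, fell from 969 ± 11.6 CPM to 331 ± 22.3 CPM (log2 fold change −1.55, edgeR adjusted p = 2.35e-40), and SDF2L1, HYOU1 and PDIA6 fell by 1.33, 0.84 and 0.8. The lists overlap in part, and over all 100 tested pathway genes outside the members 25 were called higher and 47 lower, with a median of −0.13, against 34.6% and 34.7% of all tested genes. With library totals 45 of these 100 genes were called higher and 25 lower, against 53.7% and 19.2% of all tested genes.

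**Figure D5:**
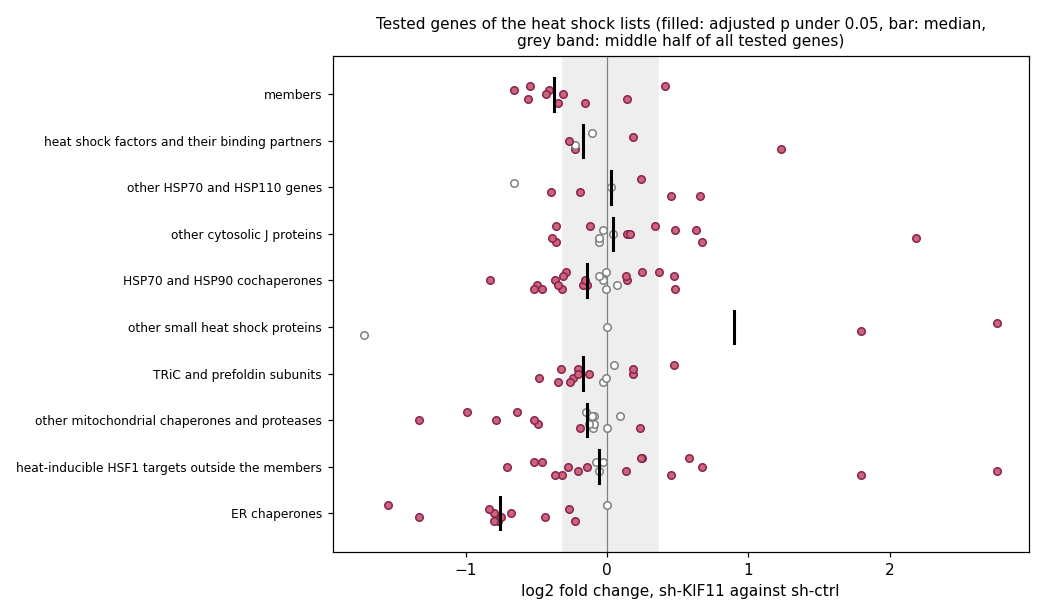
Log2 fold change of sh-KIF11 against sh-ctrl (horizontal axis) of the tested genes of each list (filled points, adjusted p under 0.05; open points, not called; bar, median), with the range between the quartiles of all tested genes, −0.31 to 0.36, as a grey band. The members lie mostly to the left of 0 with HSPH1 and HSP90AA1 to the right, and the chaperones of the endoplasmic reticulum lie furthest to the left.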

How the data were processed

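Poly(A) RNA of 6 HepG2 libraries, 3 sh-ctrl and 3 sh-KIF11, had been made into stranded libraries and sequenced with paired-end reads. The authors deposited raw counts per gene and FPKM values, which the authors had scaled to length and library size, for 20030 genes. The submitters' processing notes name bcl2fastq 1.8.4, Trimmomatic, HISAT2 2.1.0, Cufflinks 2.2.1, HTSeq 0.9.1, DESeq and GRCh38. The counting mode is not given in the sources used here. Knockdown columns named only by shRNA and number were taken as sh-KIF11, since the labels list no other shRNA. Tests on the counts used edgeR 4.0.16 under R 4.3.3 (TMM, filterByExpr, robust quasi-likelihood fit, group as the only term, 12369 genes kept and 7661 left out), limma 3.58.1 and DESeq2 1.42.0, with a prior count of 2 for log2 CPM. On counts simulated for sh-KIF11 against sh-ctrl over 12369 genes, with 200 changed by 0.5 on the log2 scale, edgeR recovered 85.5% and called 14 others. The simulation gave every gene the same dispersion, 0.00237, and changed few genes, whereas 69.3% of tested genes were called in the data. It therefore does not give the error rates of the real comparison or test the scaling. Depth was 18167773 to 19583282 counts per library.

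The members and the gene lists were chosen with earlier results of these data known. Named genes were the 10 members, KIF11, the heat shock factors and their partners, HSPA4, HSPA9, BAG3, HSPA6, HSPA4L, and, in each other list, up to 4 called genes with the largest absolute change and a mean of at least 5 CPM. Ratios within libraries were tested by a two-sided exact permutation test. Alternatives were RLE, upper-quartile and library-total scaling, 2 other filters, DESeq2, limma on FPKM after log2 with 1 or 0.1 added, leaving out each library, a block for the replicate number, and stricter thresholds. The count without HSPE1 was added after seeing the data. Promoter windows came from RefSeq (GRCh38.p14), and gene positions and transcripts from GENCODE release 29. No protein sequences were used.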

Additional observations from a re-analysis of the deposited data

How the results depend on the processing

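Of the values recomputed, 316 were labelled the same, 14 weaker, 2 stronger, 3 moved and 4 reversed. A fold change was the same where it kept its direction and side of the threshold. A count of genes was the same where it stayed within 1.5 times, and weaker where it fell by more. The ratios could not cross the threshold, since the smallest p of their permutation tests is 0.1 or 0.25. DNAJB1 changed by −0.08 with upper-quartile factors (adjusted p = 0.169), by 0.07 with library totals (0.223), by 0.05 on the log2(FPKM + 1) scale (0.342) and by 0.06 on the log2(FPKM + 0.1) scale (0.344), and between −0.19 and −0.11 with 1 library left out (edgeR or, for FPKM, limma). HSP90AB1 changed by −0.08 with library totals (edgeR adjusted p = 0.107), and HSP90AA1 by 0.12 to 0.16 with 1 library left out. Between 1 and 2 members were called higher, and 7 to 8 lower, with 1 library left out. With TMM factors and an absolute log2 fold change of at least 0.5 the counts were 0 and 3, against 17.6% and 13.9% of all tested genes. The log2 ratio of HSPD1 to HSPE1 was −0.06 in FPKM. The cause of these shifts was not tested. Over all tested genes, 6647 were called higher and 2380 lower with library totals and 5650 and 2612 on the log2(FPKM + 1) scale, against 4277 and 4294 with TMM factors, and 5031 higher and 3567 lower with upper-quartile factors. Over the pathway genes outside the members, library totals gave 45 higher and 25 lower, and FPKM gave 36 higher and 30 lower, against 25 and 47 with TMM factors. The deviations of same-numbered libraries from their group means had correlations of 0.03, −0.02 and 0 over all tested genes. The labels do not say what the numbers mean. A correlation over all genes cannot show whether they stand for a shared culture or batch that acts on fewer genes. The replicate block gave 2 members higher and 8 lower, as without it, and 4294 and 4312 genes over all. Under the block the permutation of the ratios cannot go below 0.25. HSPE1, with at most 234 counts in a library, is the member whose precision depth limits most.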

Other observations

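Among the small heat shock proteins other than HSPB1, 4 of 10 were tested, and 2 of them rose (median log2 fold change of the 4, 0.9). Over all tested genes 34.6% were called higher. HSPB8, which works with BAG3 in the removal of misfolded proteins, had 14, 23 and 11 counts in sh-ctrl against 109, 121 and 144 in sh-KIF11, or 0.904 ± 0.328 CPM and 6.19 ± 0.982 CPM (SD, n = 3 each, log2 fold change 2.76, SE 0.234, edgeR adjusted p = 3.25e-17). CRYAB, the alpha-B crystallin, had 18, 14 and 16 counts in sh-ctrl against 60, 77 and 56 in sh-KIF11 (log2 fold change 1.8, SE 0.27, edgeR adjusted p = 1.94e-08). DNAJB5, a J protein of the same class as DNAJB1, had 19, 15 and 10 counts in sh-ctrl against 71, 79 and 82 in sh-KIF11 (log2 fold change 2.19, SE 0.266, edgeR adjusted p = 3.18e-11). In each of these genes all knockdown libraries were above all controls, and HSPB1 and DNAJB1 themselves fell with TMM factors. These 3 genes were chosen after their values were seen, and their means over all 6 libraries lay under the minimum of 5 CPM set for the other named genes.

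Around HSPE1, the read-through gene HSPE1-MOB4 was given 1.23, 8.63 and 1.49 FPKM in sh-ctrl against 14.5, 9.76 and 20.7 FPKM in sh-KIF11 with 0 counts in every library. MOB4, the downstream gene of this read-through, had between 0 and 2 counts and was given 11.9, 4.99 and 12.3 FPKM in sh-ctrl against 5.28, 7.76 and 0.0262 FPKM in sh-KIF11. The FPKM of the read-through gene was higher in every knockdown library than in any control, while the counts of both genes were at or near 0.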
